A study of Arabidopsis thaliana x Arabidopsis arenosa and Arabidopsis suecica with 6 samples.

Results

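TTTA and AATA are F1 hybrids of Arabidopsis that share the parent AlloF8, a resynthesized allotetraploid of A. thaliana and A. arenosa in generation F8. TTTA came from A. thaliana and AlloF8, and AATA from A. arenosa and AlloF8, with AlloF8 named second in both labels. By their names TTTA holds 3 T genomes, from A. thaliana, beside 1 A genome, from A. arenosa, and AATA holds 1 T genome beside 3 A genomes. These are 2 of the 6 samples of the series and 6 of its 16 libraries, with 3 libraries for each cross. Each was chosen by its label, and the libraries were paired by the replicate number in the column headers. Poly(A) RNA was taken from mature rosette leaves before bolting, at 6 to 7 weeks for allotetraploids, in plants kept at 22 °C in 16 h of light and 20 °C in 8 h of dark. Neither the mother of each cross nor the number of plants behind a library is stated, and nothing says that replicates were separate plants, so p-values measure only the spread between these libraries, which may be technical.

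In an allotetraploid each gene is usually present as homoeologs, the copies that come from the parental species and share 1 nucleus. If every copy were transcribed at the same rate, the output of a homoeolog would follow its number of genomes, and a gene whose homoeologs were equally active would keep its total when T genomes replace A genomes. Departures can arise in cis, when homoeologs differ in their own regulatory sequences, or in trans, when regulators change with the genomes that encode them, and the comparison asks how far each homoeolog and the total followed the copies. In leaves, jasmonate-induced storage proteins, glucosinolate-degrading enzymes and pathogenesis-related proteins are known to respond strongly to wounding, herbivores and pathogens, and dark-induced genes respond to low sugar.

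The values are RPKM, a read count corrected for the length of the transcript and the size of the library, which the authors gave separately for both homoeologs. Read depth is unknown. Summed RPKM ran from 764220 to 781420 in TTTA and from 732560 to 739240 in AATA, and no listed total was under 2 RPKM. Markers of leaf mesophyll were high, and most markers of other organs were listed at 0. With 1 transcript a gene the 5 mesophyll markers summed to 17639, 9768 and 17609 RPKM in TTTA libraries 1 to 3 and to 17698, 9373 and 14864 RPKM in AATA libraries 1 to 3, lowest in replicate 2 of both. Of the other markers, 7 of 8 flower markers, 6 of 7 root markers and all 6 seed markers were listed at 0 in all 6 libraries. SEP2, the remaining flower marker, was listed at 0 in TTTA and at 5.86 to 11.2 RPKM in AATA. Of markers of leaf cell types, 4 of 5 for trichomes and 5 of 8 for the guard cell lineage were also at 0 in all 6 libraries. A listing at 0 thus does not tell an absent organ from a low level. Over all their listed transcripts the 6 markers of senescent leaf summed to 30.1 to 216 RPKM in TTTA and 39.1 to 107 RPKM in AATA, with SAG12 listed at 0 throughout. Replicate 2 had the largest median absolute deviation from the log2 mean of its cross, at 0.233 in AATA and 0.178 in TTTA. Replicate 1 had 0.149 and 0.168, so in TTTA replicate 2 was little farther out. Results are also given without replicate 2. In bulk leaf RNA, fewer cells of a type and less RNA per cell cannot be told apart.

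The share of expression from the T genome lay close to the share of T genomes. T homoeologs made up 74.1%, 71.6% and 72.0% of summed RPKM in TTTA libraries 1 to 3, against 22.8%, 20.5% and 24.0% in AATA libraries 1 to 3. The means were 72.6% ± 1.35 in TTTA and 22.4% ± 1.77 in AATA (SD, n = 3 each), where the genome copies give 75% and 25%. The groups did not overlap, and the two-sided exact permutation test gave p = 0.1, the smallest that 3 against 3 libraries allow. For the median gene the T share was 75.2% ± 0.173 in TTTA and 23.3% ± 0.480 in AATA (SD, n = 3 each).

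Few genes passed the test for total expression. Of 14016 genes tested with limma on log2(RPKM + 0.5), paired by replicate, 397 rose in TTTA (2.83% of those tested) and 491 fell (3.5%) at a Benjamini-Hochberg adjusted p under 0.05. The median log2 difference, TTTA minus AATA, was -0.06, and the middle 80% of genes lay between -0.66 and 0.54. Of the called genes, 279 rose and 402 fell by at least 2-fold, and 30 rose and 48 fell by at least 4-fold. Among 12870 genes with values in all 6 libraries, every TTTA library was above every AATA library for 12.4% and below for 15.7%.

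These calls were lost when pair 1 or pair 3 was left out, and every fit that left out a pair had 1 residual degree of freedom. Without pair 1 or without pair 3 no gene passed, with 1956 and 2097 genes at an unadjusted p under 0.05, against 3636 with all pairs. Without pair 2, 1320 genes rose and 2118 fell, but that fit took the spread of each gene from the trend over all genes. Without the pairing, 134 genes rose and 150 fell. The directions of the genes named next were required to be the same in all 3 pairs, so their direction is no sign of stability.

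**Figure D1:**
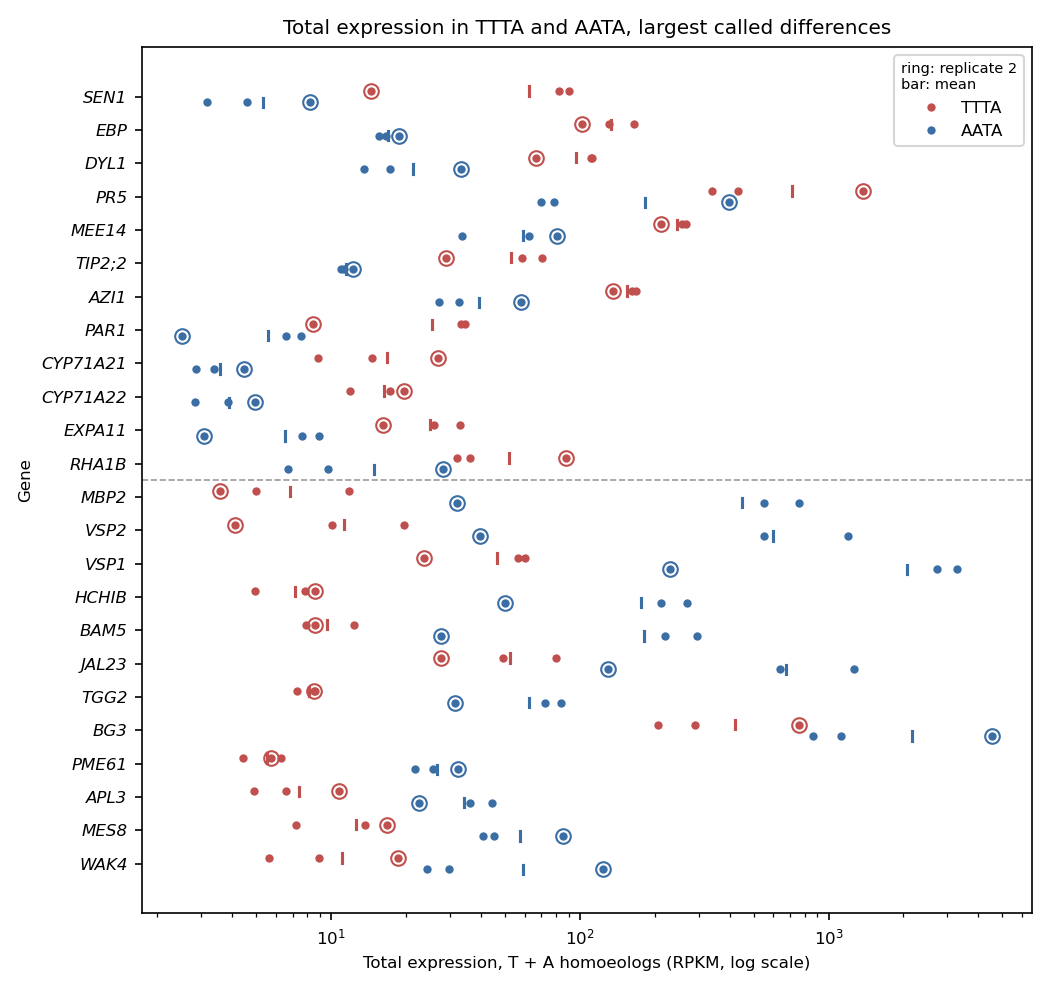
Total expression (T + A homoeologs, RPKM, log scale) of the 12 largest called rises (above the dashed line) and the 12 largest called falls (below it), with TTTA in red above AATA in blue. Points are libraries, rings mark replicate 2 and bars are means; the libraries of the crosses do not overlap for 11 of the 12 rises and for all 12 falls.

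The 12 largest rises had log2 differences from 1.88 to 3.14. SEN1, a dark-induced gene of the rhodanese superfamily, had totals of 82.3, 14.4 and 90.5 RPKM in TTTA libraries 1 to 3, against 3.18, 8.24 and 4.58 RPKM in AATA libraries 1 to 3. Every TTTA library was above every AATA library, although TTTA library 2 was far below the other two. The log2 difference was 3.14 ± 0.68 (SE; limma adjusted p = 0.0468), and it was 4.33 without pair 2 and 2.47 without pair 1. EBP, a transcription factor of the ethylene response factor family, had 131, 102 and 166 RPKM in TTTA and 16.6, 18.7 and 15.6 RPKM in AATA. Its groups lay far apart with little spread, at a log2 difference of 2.91 ± 0.22 (SE; limma adjusted p = 0.0111).

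PR5, a thaumatin-like pathogenesis-related protein, had 340, 1374 and 432 RPKM in TTTA and 78.6, 398 and 69.5 RPKM in AATA. Replicate 2 was highest in both crosses, and AATA library 2 lay above TTTA library 1, so the groups overlapped while every pair was higher in TTTA. The log2 difference was 2.17 ± 0.19 (SE; limma adjusted p = 0.0111 with the pairing and 0.186 without it). AZI1, a lipid transfer-like protein of systemic immunity, had 168, 136 and 161 RPKM in TTTA and 32.6, 58.0 and 27.2 RPKM in AATA, a log2 difference of 2.04 ± 0.27 (SE). PAR1, a repressor of the shade avoidance response, had 34.5, 8.44 and 33.3 RPKM in TTTA and 6.56, 2.52 and 7.56 RPKM in AATA. Its level was lowest in replicate 2 of both crosses, and the groups did not overlap (log2 difference 1.98 ± 0.22, SE).

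The other 7 rises had log2 differences from 1.88 to 2.21. They were DYL1, a dormancy-associated gene (111, 66.3 and 111 RPKM in TTTA; 13.5, 33.2 and 17.2 RPKM in AATA), MEE14, the vacuolar aquaporin gene TIP2;2, the cell wall-loosening expansin EXPA11, the RING-finger gene RHA1B and the cytochrome P450 genes CYP71A21 and CYP71A22. The last pair are close relatives, and reads could be split between them. DYL1 was at 2.21, and at 2.82 without pair 2. TIP2;2 was even within AATA, at 11.2, 12.2 and 10.96 RPKM, and more variable in TTTA, at 58.6, 28.8 and 70.4 RPKM. All 12 rises passed with all 12 F1 libraries in the fit, and 6 of the 12 passed without the pairing.

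The 12 largest falls had log2 differences from -5.20 to -2.13. MBP2, a myrosinase-binding protein of the glucosinolate system, had 11.8, 3.56 and 4.99 RPKM in TTTA and 760, 32.1 and 549 RPKM in AATA. All AATA libraries were above all TTTA libraries, but AATA library 2 was far below the other two. The log2 difference was -5.20 ± 0.63 (SE; limma adjusted p = 0.0138), a 36.7-fold fitted fall, and it was -6.30 without pair 2 and -4.48 without pair 3.

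VSP1 and VSP2 encode vegetative storage proteins with acid phosphatase activity that jasmonate induces. VSP1 had 56.4, 23.5 and 59.9 RPKM in TTTA, against 3271, 231 and 2718 RPKM in AATA (log2 difference -4.87 ± 0.46, SE; limma adjusted p = 0.0111). VSP2 had 19.6, 4.11 and 10.1 RPKM in TTTA, against 1198, 39.7 and 550 RPKM in AATA (log2 difference -4.91 ± 0.51, SE). The genes are near-identical neighbours, so their separate values are uncertain, and in both the groups were apart with the lowest level of either cross in replicate 2. Without pair 2 the log2 difference was -5.67 for VSP1 and -5.80 for VSP2. HCHIB, a basic chitinase, had 7.88, 8.62 and 4.93 RPKM in TTTA, against 270, 50.04 and 211 RPKM in AATA. The groups did not overlap, and the log2 difference was -4.25 ± 0.52 (SE; limma adjusted p = 0.0138), or -5.15 without pair 2.

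BG3, a pathogenesis-related glucanase, had a different order of replicates. BG3 had 205, 763 and 290 RPKM in TTTA and 1121, 4520 and 865 RPKM in AATA, highest in replicate 2 of both crosses, where VSP1, VSP2 and MBP2 were lowest. Its log2 difference was -2.20 ± 0.22 (SE), with no overlap. TGG2, a myrosinase that hydrolyses glucosinolates, had 8.56, 8.53 and 7.26 RPKM in TTTA and 72.1, 31.4 and 83.9 RPKM in AATA (log2 difference -2.76 ± 0.32, SE). BAM5, a beta-amylase, and JAL23, a jacalin-related lectin, had log2 differences of -3.63 and -3.29, and of -4.62 and -3.83 without pair 2. The last 4 were PME61, a pectin methylesterase, APL3, a subunit of the first enzyme of starch synthesis, MES8, a methyl esterase, and WAK4, a wall-associated kinase, from -2.17 to -2.13. Of the 12 falls, 12 passed with all 12 F1 libraries in the fit and 5 passed without the pairing.

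**Figure D2:**
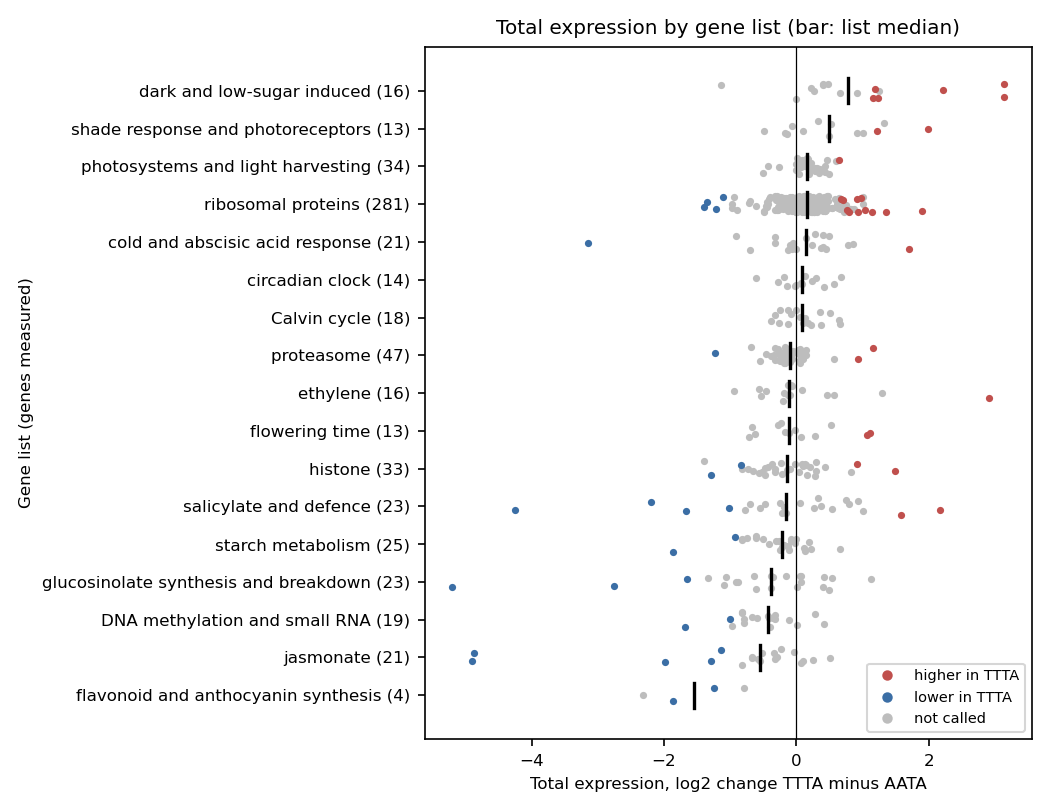
Log2 difference of total expression (TTTA minus AATA) for the measured genes of each list, one point per gene, with the list median as a black bar, red for genes called higher in TTTA, blue for genes called lower in TTTA and grey for genes not called. The list of dark and low-sugar induced genes has the highest median, 0.78, and that of flavonoid synthesis the lowest, -1.55, over 4 genes.

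Among genes induced by darkness or low sugar, 6 of 16 measured genes rose and none fell, against 2.83% and 3.5% of all genes, with a list median of 0.78 against -0.06 over all genes. BCAT-2, an enzyme of branched-chain amino acid breakdown, had 22.1, 2.87 and 22.9 RPKM in TTTA, against 2.16 and 2.098 RPKM in AATA libraries 1 and 3. AATA library 2 had no value, so its log2 difference of 3.13 ± 0.24 (SE) came from pairs 1 and 3. DIN4, another subunit gene of branched-chain amino acid breakdown, had 27.6, 19.1 and 25.8 RPKM in TTTA and 9.72, 10.1 and 9.62 RPKM in AATA. TPS8 and TPS11, of the trehalose phosphate synthase family, had log2 differences of 1.19 and 1.16. SEN1 and DYL1 make up the 6, of which 4 passed without the pairing. The medians of the pairs were 1.36, 0.67 and 0.95, and the 10 members that were not called ranged from EXL4 at -1.14 to AKINBETA1 at 1.25 (limma adjusted p = 0.0902).

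In the list of shade response and photoreceptors, 2 of 13 measured genes rose, against 2.83% of all genes, and the median was 0.50. HB-2, a homeodomain factor induced by shade, had 63.7, 30.03 and 94.9 RPKM in TTTA, against 38.3, 9.39 and 38.0 RPKM in AATA, so the groups overlapped. HFR1 at 1.32 and PIF4 at 1.00, both shade regulators, had limma adjusted p of 0.0619 and 0.0644. PAR1 and HB-2 were not past the threshold without the pairing.

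Of 21 measured jasmonate genes, 5 fell and none rose, against 3.5% and 2.83% of all genes, and the median was -0.55. LOX2, a lipoxygenase that starts jasmonate synthesis, had 951, 431 and 521 RPKM in TTTA and 2493, 737 and 1687 RPKM in AATA. Its groups overlapped, because AATA library 2 was below TTTA library 1, while every pair was lower in TTTA (log2 difference -1.29 ± 0.20, SE). JAZ10, a repressor of jasmonate signalling, had 10.1 and 7.53 RPKM in TTTA libraries 1 and 3, against 40.9, 9.59 and 31.4 RPKM in AATA. CORI3, a jasmonate-induced transaminase family gene, had a log2 difference of -1.13, and VSP1 and VSP2 complete the 5. The pair medians were -0.62, 0.09 and -0.70, so the list was lower in pairs 1 and 3 and not in pair 2. None of the 5 passed without the pairing. AOS at -0.03 and COI1 at 0.25, an enzyme and the receptor of the pathway, did not pass.

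Genes of glucosinolate synthesis and breakdown gave 3 falls and no rise among 23 measured, where 3.5% of all genes fell, at a median of -0.39. All 3 act in or on breakdown. They were MBP2, TGG2 and ESM1, a modifier of the breakdown products, with 62.7, 42.8 and 48.3 RPKM in TTTA and 190, 117 and 183 RPKM in AATA. TGG1, the other leaf myrosinase, was at -0.91 (limma adjusted p = 0.0544). No synthesis gene passed, and CYP79F1 and CYP79F2, close relatives that begin aliphatic glucosinolate synthesis, were at 1.13 and -1.06. The pair medians were -0.85, 0.37 and -0.37, and 2 of the 3 calls passed without the pairing.

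Salicylate and defence genes moved in both directions, with 2 rises and 4 falls among 23 measured, against 2.83% and 3.5% of all genes, and a median of -0.15. PR5 rose, as did PR2, a glucanase, which had 517, 1074 and 493 RPKM in TTTA and 190, 657 and 80.3 RPKM in AATA with overlapping groups. HCHIB, BG3, PAD3 and EDS5 fell. PAD3, the last enzyme of camalexin synthesis, had 15.4, 49.6 and 16.0 RPKM in TTTA and 44.6, 230 and 40.2 RPKM in AATA, highest in replicate 2 of both. EDS5, a salicylate transporter, was at -1.02. PR1, the usual marker of the pathway, had 472, 3450 and 606 RPKM in TTTA and 578, 4573 and 215 RPKM in AATA, and did not pass (log2 difference 0.27 ± 0.36, SE). HCHIB was the 1 of the 6 genes that passed without the pairing.

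In the remaining lists few genes passed, where 2.83% of all genes rose and 3.5% fell. No clock gene passed among 14 measured (median 0.08) and no Calvin cycle gene among 18 (median 0.08). The clock genes CCA1, LHY, PRR9, RVE1 and RVE8 did not enter the test, so nothing is shown for them. Of 34 photosystem and light-harvesting genes 29 had positive differences, the median was 0.16, and 1 rose, DRT112, a plastocyanin, with 2777, 2966 and 3066 RPKM in TTTA and 1839, 1784 and 2044 RPKM in AATA. Among 13 flowering time genes the repressors MAF1 and MAF2 rose at 1.11 and 1.07, while their relative FLC was at -0.03. MAF1 had 18.3, 11.2 and 17.1 RPKM in TTTA and 7.50, 5.43 and 7.53 RPKM in AATA. Of 25 starch genes 2 fell, GBSS1, which makes amylose, at -1.86, and the branching enzyme SBE2.2 at -0.92, with a median of -0.22. APL3 and BAM5, named above among the largest falls, were not in this list. The calls of DRT112, MAF1, MAF2, GBSS1 and SBE2.2 were lost without the pairing.

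Of 4 measured flavonoid genes, F3H and FLS1, both oxygenases of flavonol synthesis, fell at -1.86 and -1.25, and CHS, the entry enzyme, was at -2.32 (limma adjusted p = 0.0570). F3H had no value in TTTA library 1. Of 19 genes of DNA methylation and small RNA, AGO2, an Argonaute protein, and DME, a DNA demethylase, fell, and the median was -0.43. AGO2 had 10.2, 8.38 and 7.96 RPKM in TTTA and 27.0, 35.6 and 26.2 RPKM in AATA, with no overlap. Of 21 cold and abscisic acid genes COR15B, a chloroplast protein of cold tolerance, rose at 1.71 and LTI65 fell at -3.14, from pairs 1 and 3 alone. EBP was the 1 gene that rose among 16 ethylene genes. Of 281 ribosomal protein genes by product name 11 rose and 4 fell (median 0.16), including RPS6 at 1.35, and of 33 histone genes 2 rose and 2 fell. Of 47 genes whose product name mentions the proteasome, not all of which need be its subunits, 2 rose and 1 fell. For the ribosomal genes that was 3.91% and 1.42%, near the 2.83% and 3.5% of all genes that rose and fell. The shares were 6.06% and 6.06% for histone genes and 4.26% and 2.13% for proteasome genes, from few genes each. Without the pairing the counts that rose and fell were 4 and 0 for ribosomal, 1 and 0 for histone and 1 and 0 for proteasome genes. The calls of DME, COR15B and LTI65 and 1 of the 2 flavonoid calls were also lost without it.

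**Figure D3:**
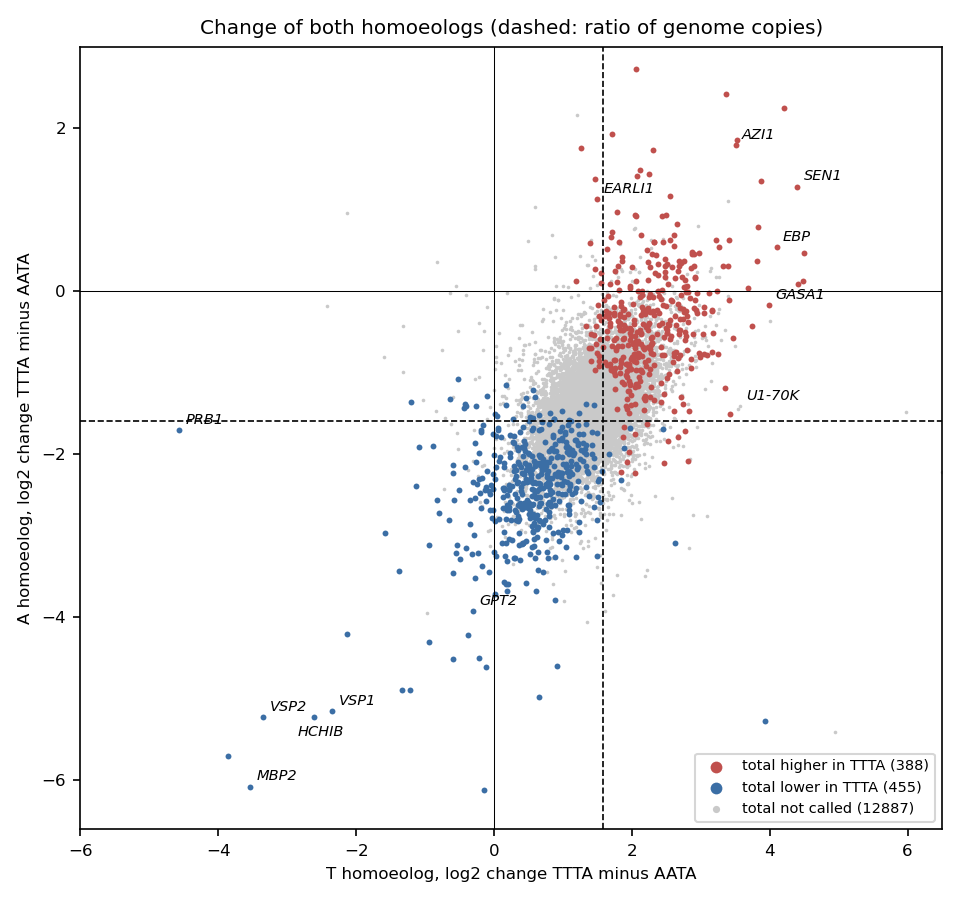
Log2 difference (TTTA minus AATA) of the T homoeolog against that of the A homoeolog for 13730 genes tested for both, with dashed lines at the ratio of genome copies. Genes whose total was called higher (red, 388) lie toward the upper right and genes whose total was called lower (blue, 455) toward the lower left.

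The T homoeolog was higher in TTTA for 13123 of 13885 genes (94.5%) and lower for 23 (0.166%). The A homoeolog was lower in TTTA for 12932 of 13861 genes (93.3%) and higher for 36 (0.26%). The median log2 differences were 1.399 for T and -1.45 for A, where the copy ratio of 3 to 1 is 1.585. For T the median was 1.21 for genes of 1 to 5 RPKM, 1.49 for genes of 5 to 20 RPKM and 1.76 for genes of at least 20 RPKM. For A it was -1.46, -1.48 and -1.40 for the same classes, so it did not move with level as T did. Without a pseudocount the median log2 ratio of means was 1.58 for T and -1.63 for A over all genes tested. Over genes of at least 20 RPKM it was 1.79 for T and -1.42 for A, so both were higher there.

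A change beyond the copy ratio is larger than 3-fold in the direction of the copies, and a change short of it is smaller or reversed. Against the copy ratio, 40 T homoeologs were beyond (0.288%) and 116 short (0.835%), and 121 A homoeologs were beyond (0.873%) and 359 short (2.59%). These counts depend on how low genes are handled. For genes of at least 5 RPKM they were 0 and 0 for T, and 71 and 182 for A. Without the pairing they were 3 and 8 for T, and 41 and 144 for A. Without pair 1 they were 4 and 10 for T and 0 and 0 for A, and without pair 3 they were 1 and 0 for T and 0 and 0 for A.

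The total is the sum of the homoeologs, so their changes are not independent of its call. Among the 388 genes with a higher total, both homoeologs lay on the same side of their copy-based level for 349. Among the 455 with a lower total they did so for 417. Over all 13730 genes both lay on the same side for 8282 (60.3%). In the higher group the median distance from the copy ratio was 0.61 for T and 1.14 for A, and in the lower group -1.02 for T and -0.77 for A.

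**Figure D4:**
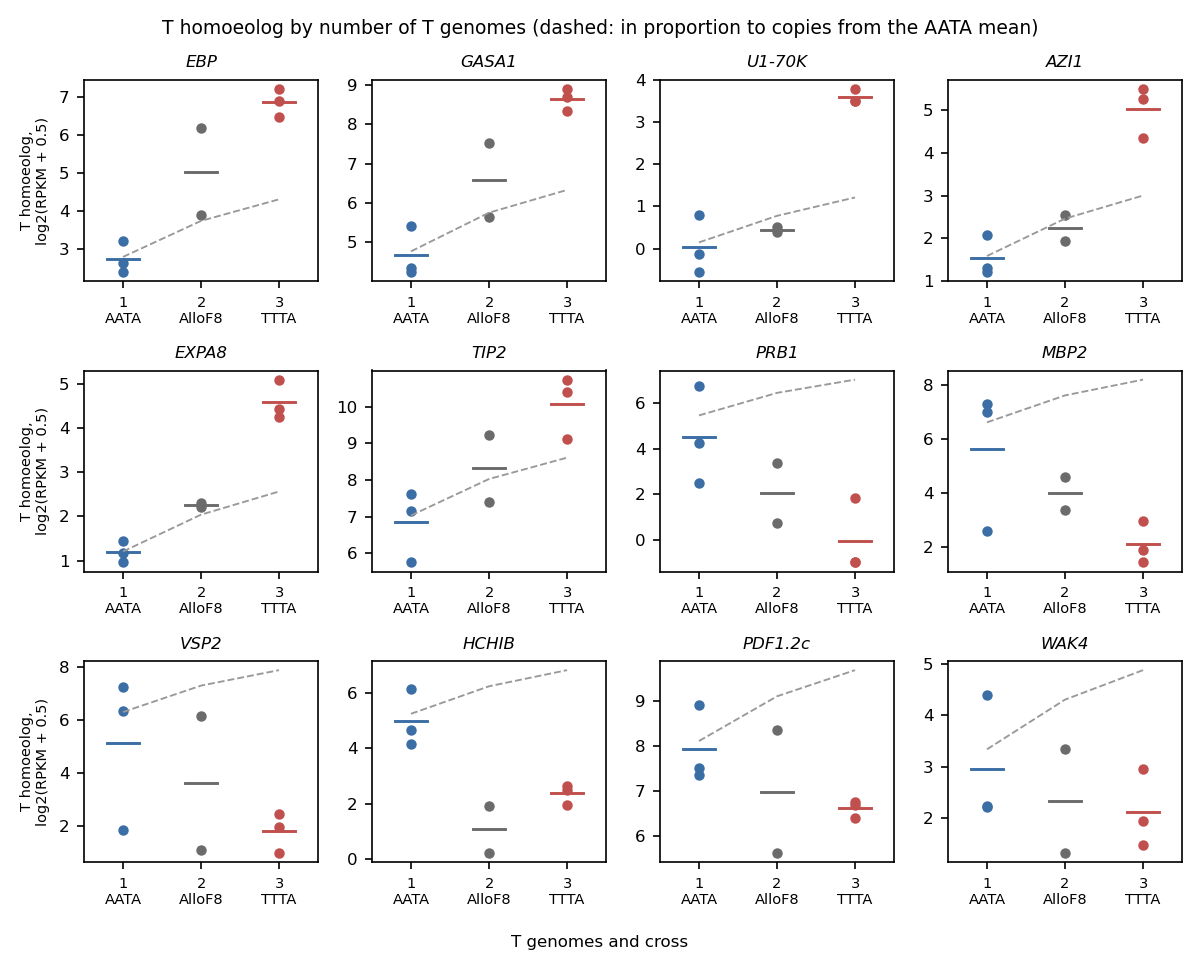
T homoeolog level, log2(RPKM + 0.5), of the 6 genes farthest beyond and the 6 farthest short of the copy ratio, at 1 (AATA), 2 (AlloF8) and 3 (TTTA) T genomes. Points are libraries, bars are means of the log2 values, and the dashed line is proportional to T copies from the AATA mean; the first 6 genes end above the line and the last 6 below it.

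The T homoeologs named as farthest beyond the copies were those of EBP, GASA1, U1-70K, AZI1, EXPA8 and TIP2. GASA1, a gibberellin-regulated peptide, had T levels of 321, 415 and 476 RPKM in TTTA and 19.5, 18.3 and 41.9 RPKM in AATA. The log2 difference of these T levels, not divided by copies, was 3.99 ± 0.24 (SE; limma adjusted p against the copy ratio = 0.0349). Per T genome the mean was 135 RPKM in TTTA and 26.6 RPKM in AATA. Its A homoeolog had 178, 308 and 353 RPKM in TTTA and 290, 331 and 283 RPKM in AATA, overlapping in spite of the change from 3 A genomes to 1. In AlloF8, with 2 T genomes, the T level was 185 and 49.1 RPKM in libraries 1 and 2.

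EBP showed the same at its T homoeolog, with 117, 88.2 and 146 RPKM in TTTA and 4.75, 8.79 and 5.65 RPKM in AATA, or 39.0 RPKM per T genome in TTTA and 6.399 RPKM in AATA. U1-70K, a protein of the splicing machinery, had totals of 21.0, 18.1 and 16.9 RPKM in TTTA and 18.2, 23.2 and 18.5 RPKM in AATA, which overlapped (log2 difference -0.09 ± 0.19, SE). Its T homoeolog had 13.3, 10.8 and 10.9 RPKM in TTTA, against 0.181, 0.416 and 1.22 RPKM in AATA, where values under 2 RPKM are imprecise. TIP2, a vacuolar aquaporin, was the most abundant of the 6, with T levels of 1353, 557 and 1718 RPKM in TTTA and 143, 53.2 and 195 RPKM in AATA. None of the 6 passed the test against the copies without pair 1, without pair 3 or with a minimum of 5 RPKM. Without the pairing 1 of the 6 passed.

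Some T homoeologs were lower in TTTA although it has 3 times the T genomes. Of these 23 genes, 20 also had a lower A homoeolog and 18 a lower total. PDF1.2c, a plant defensin, had T levels of 108, 103 and 83.6 RPKM in TTTA and 183, 485 and 163 RPKM in AATA, with no overlap (log2 difference -1.31 ± 0.31, SE; limma adjusted p against the copy ratio = 0.0349). Per T genome that was 32.8 RPKM in TTTA and 277 RPKM in AATA. HCHIB had T levels of 5.14, 5.74 and 3.40 RPKM in TTTA and 24.7, 17.02 and 69.7 RPKM in AATA. PRB1, a basic relative of PR1, had T levels of 3.01, 9.03e-05 and 0.000214 RPKM in TTTA and 18.5, 107 and 5.20 RPKM in AATA, while its A homoeolog supplied nearly all of the total. PRB1 and PR1, and the PDF1.2 genes, are close paralogs, so their values are uncertain. MBP2, VSP2 and WAK4 complete the 6 farthest short. HCHIB was at -2.61 and at -1.83 without pair 3, and PRB1 at -4.57 and at -2.97 without pair 2. Of the 6, 1 passed the test against the copies without the pairing, 1 without pair 1, 0 without pair 3 and 0 with a minimum of 5 RPKM, and PDF1.2c had an adjusted p of 0.0525 in limma without the pairing.

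The A homoeologs farthest beyond the copies were of MBP2, VSP2, HCHIB, VSP1, GPT2 and CML42. MBP2 had A levels of 4.52, 1.38 and 1.81 RPKM in TTTA and 632, 26.7 and 392 RPKM in AATA. The log2 difference of these A levels, not divided by copies, was -6.08 ± 0.65 (SE; limma adjusted p against the copy ratio = 0.0278), and it was -7.19 without pair 2 and -5.42 without pair 3. Per A genome the mean was 2.57 RPKM in TTTA and 117 RPKM in AATA. CML42, a calmodulin-like protein, had A levels of 1.34, 3.61 and 1.79 RPKM in TTTA and 38.9, 43.5 and 25.9 RPKM in AATA, while its T levels were 17.7, 32.2 and 18.7 RPKM in TTTA and 11.2, 14.7 and 9.60 RPKM in AATA. GPT2, a glucose phosphate carrier of the plastid envelope, had A levels of 0.247, 0.709 and 0.740 RPKM in TTTA, below the lowest total listed, and 24.1, 9.28 and 15.8 RPKM in AATA. Of the 6, 2 passed the test against the copies without the pairing and 0 without pair 1 or pair 3. Without pair 2 HCHIB was at -6.18, VSP1 at -5.88 and VSP2 at -6.06, against -5.23, -5.15 and -5.23 with all pairs.

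Of 36 A homoeologs that were higher in TTTA despite 1 A genome in place of 3, 33 had a higher T homoeolog and 29 a higher total. AZI1 and its tandem relative EARLI1 were farthest from the copies. AZI1 had A levels of 123, 116 and 124 RPKM in TTTA and 28.9, 56.1 and 25.4 RPKM in AATA, with a log2 difference of these levels of 1.79 ± 0.26 (SE; limma adjusted p against the copy ratio = 0.00981). Per A genome the mean was 121 RPKM in TTTA and 12.3 RPKM in AATA. EARLI1 had A levels of 81.1, 89.0 and 61.0 RPKM in TTTA and 33.2, 47.1 and 25.8 RPKM in AATA. The groups did not overlap in either gene, but the genes are similar enough for reads to be shared. TIP2;2, PAR1, EXPA8 and TIR complete the 6. Of the 6, 4 passed the test against the copies without the pairing and 0 without pair 1 or pair 3.

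The T to A ratio was higher in TTTA for 13662 of 13730 genes (99.5%) and lower for 3 (0.0218%), with a median log2 difference of 2.87 where the copies give 3.17. It was beyond the copies for 205 genes (1.49%) and short for 1814 (13.2%), and for genes of at least 5 RPKM in each homoeolog these were 138 and 328. The median and the number short depended on the pseudocount. With pseudocount 1 the median was 2.60, with 232 genes beyond and 7144 short. With pseudocount 0.1 the median was 3.17, as the copies give, with 115 beyond and 83 short. The number short is therefore no measure of how many genes departed from the copies. The ratio compares homoeologs within a library, so a change of the whole gene cancels. UGT72E1, a glucosyltransferase of lignin precursors, had a T share of 90.7%, 93.5% and 92.6% in TTTA and 8.38%, 16.2% and 3.54% in AATA, with a log2 ratio difference of 5.98 ± 0.30 (SE; limma adjusted p against the copies = 0.00600). RbcX1, a chaperone of Rubisco assembly, had T shares of 89.0%, 91.2% and 90.1% in TTTA and 12.5%, 25.8% and 22.6% in AATA. The total did not pass in either gene, at a log2 difference of -0.17 ± 0.19 for UGT72E1 and 0.41 ± 0.19 for RbcX1 (SE).

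BG3, U1-70K and PR1 were the other 3 highest. PR1, at a log2 ratio difference of 4.93 and of 5.62 without pair 3, had T shares of 90.9%, 93.8% and 88.3% in TTTA and 19.5%, 20.3% and 39.0% in AATA. At the other end, PDF1.2c had T shares of 26.0%, 11.01% and 9.80% in TTTA and 29.2%, 20.8% and 21.8% in AATA, so the T share was lower in every TTTA library than in its paired AATA library. EARLI1, with 11.8%, 13.7% and 19.7% in TTTA and 8.27%, 11.4% and 14.7% in AATA, stayed mostly of A origin in both crosses. MT1C, a metallothionein, and TAT3, an aminotransferase, had T shares of 42.2% to 51.8% and 78.1% to 89.8% in TTTA, and 25.7% to 58.8% and 65.6% to 84.5% in AATA. The fifth was PDF1.3, another defensin. For MT1C and PDF1.3 the pairs differed in sign, and all 3 pairs were short of the copies. The T share was over 50% in all 6 libraries for 110 genes and under 50% in all 6 for 290. Of the 10 named ratios all passed without the pairing, and 2 passed without pair 2.

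Some genes were listed in 1 cross alone. Of 16781 genes listed in any of the 6 libraries, 65 had a value in all TTTA libraries and were listed at 0 in all AATA libraries, and 276 had the opposite. Of these, 21 and 75 had the same pattern in TATT and TAAA, the crosses with AlloF8 named first. AHP4, a phosphotransfer protein of the cytokinin relay family, was listed at 0 in TTTA and had 25.2, 15.9 and 40.3 RPKM in AATA. AT1G23950, of unknown function, had 15.1, 22.6 and 15.4 RPKM in TTTA and was listed at 0 in AATA. In TATT and TAAA AT1G23950 kept its pattern. AHP4 did not, at 0 in TATT and at 0, 0 and 9.41 RPKM in TAAA. No listed total was under 2 RPKM, so an entry at 0 can be a gene below that level. It can also be a gene that was not expressed or 1 whose value could not be estimated, and this was not tested. Where listed, the median level was 5.12 RPKM for the 65 genes and 4.04 RPKM for the 276 genes. With 1 transcript a gene, TTTA libraries listed 14176 to 14861 genes and AATA libraries 15123 to 15492. More genes were thus listed in every AATA library than in any TTTA library, and 276 against 65 is no measure of cross-specific expression. The examples were chosen after their values were seen.

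TATT and TAAA hold the same genomes with AlloF8 named first, and share no library with TTTA and AATA. In that pair 917 of 13749 genes rose in TATT (6.67%) and 1123 fell (8.17%). Of the 387 genes called higher in TTTA and measured there, 351 had a higher mean in TATT than in TAAA (90.7%, against 47.2% of all genes) and 204 were called. Of the 467 called lower in TTTA, 430 had a lower mean in TATT (92.1%, against 52.8% of all genes) and 243 were called. The median log2 difference of the higher genes was 1.16 in TTTA against AATA and 0.95 in TATT against TAAA, and of the lower genes -1.26 and -1.07.

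**Figure D5:**
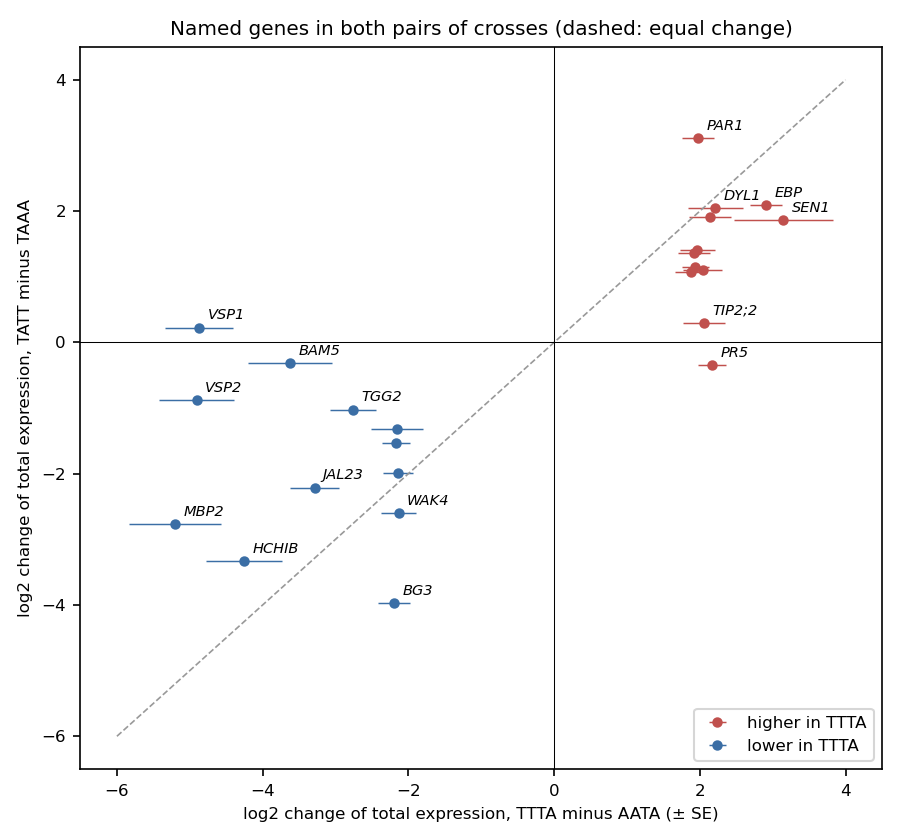
Log2 difference of total expression in TTTA minus AATA (x axis, ± SE) and in TATT minus TAAA (y axis) for the 12 largest rises (red) and 12 largest falls (blue). Of these, 11 rises and 11 falls have the same direction on both axes; VSP1 and PR5 do not.

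Among the 24 named totals, 22 had the same direction in both pairs, 7 of the 12 rises and 6 of the 12 falls were called in TATT against TAAA, and none differed between the pairs by the limma interaction test. PAR1 was at 1.98 in TTTA against AATA and 3.11 in TATT against TAAA. VSP1 was at -4.87 in TTTA against AATA and 0.22 in TATT against TAAA, and VSP2 at -4.91 and -0.88, with adjusted p for the difference of 0.109 and 0.114. PR5 was at 2.17 in TTTA against AATA and -0.35 in TATT against TAAA (adjusted p for the difference 0.212). A difference that does not pass shows neither that the pairs act alike nor that they differ. For total expression the interaction passed for 2 of 13462 genes (0.0149%), FAH1 and AAP4, with 1887 at an unadjusted p under 0.05. For the A homoeolog it passed for FAH1, 1 of 13402 genes (0.00746%), and for the T to A ratio for FSD1 and 2 plastid genes, 3 of 13323 (0.0225%). The calls for total expression and for the ratio were lost without the pairing.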

How the data were processed

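The authors deposited RPKM values per transcript for the T and the A homoeolog in each replicate column. Per the submitters' processing notes the genome build was TAIR9, while the aligner and the assignment of reads to homoeologs were not given in the sources used here. The 5 tables used listed 22298 transcripts of 17415 genes, and 1 transcript a gene was kept, that of the highest mean total in the 6 libraries. Symbols came from the TAIR10.1 annotation (99.1% of gene codes found), and no coordinates were used. Pairs listed at 0 for both homoeologs were treated as missing, and A. suecica was not used here.

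Totals, T, A and T to A ratios were tested with limma 3.58.1 (R 4.3.3) on log2(RPKM + 0.5), with replicate number as a block, for genes averaging 1 RPKM or more with at least 2 complete pairs, two-sided, Benjamini-Hochberg over all genes, threshold 0.05. Homoeologs were also tested against the copy ratio of 1.585. Same-numbered libraries deviated together, with correlations of 0.345, 0.363 and 0.205 over 12870 genes. Between different numbers, TTTA library 1 with AATA library 3 gave 0.299, above the value for replicate 3. The rest were negative. Deviations were taken from the mean of each cross, which partly forces negative values between different numbers. Replicate 2 had the highest same-number correlation, close to that of replicate 1. The script was tested on simulated data. Named genes had values in 3 pairs, lay on the same side in each (of 0 for totals, of the copy ratio for homoeologs and ratios), and had a symbol and a mean of at least 5 RPKM: the 12 largest called rises and falls of the total, the 6 farthest beyond and short of the copies for each homoeolog, the 5 lowest and highest ratios, and up to 4 members of each list. Other list members named, called or not, were chosen after their values were seen. The comparison, members and lists were chosen with earlier results of these data known. Of 353 written list entries 352 matched the annotation. Promoter motifs were not searched. Alternatives changed the pairing, pseudocount, minimum, scaling, trend, transcripts and libraries.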

Additional observations from a re-analysis of the deposited data

Results flagged for a closer look

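The difference between TTTA against AATA and TATT against TAAA was tested with limma over 12 F1 libraries, and 6 results passed an adjusted p of 0.05. FAH1, the hydroxylase that leads to sinapate and syringyl lignin, had 62.3, 75.2 and 68.0 RPKM in TTTA, 85.5, 130 and 77.6 RPKM in AATA, 53.0, 71.3 and 57.9 RPKM in TATT, and 302, 373 and 290 RPKM in TAAA. TAAA stood above the other crosses, and the log2 differences of total expression were -0.48 in TTTA against AATA and -2.40 in TATT against TAAA, which differed by 1.92 (adjusted p = 0.0279). The A homoeolog of FAH1 differed by 2.04 (adjusted p = 0.0360), at -1.05 in TTTA against AATA and -3.09 in TATT against TAAA. AAP4, an amino acid permease, had 25.3, 26.2 and 32.2 RPKM in TTTA, 16.3, 10.6 and 15.6 RPKM in AATA, 27.7, 26.3 and 29.8 RPKM in TATT, and 52.9, 42.3 and 55.2 RPKM in TAAA. Its directions were opposite, at 0.97 in TTTA against AATA and -0.82 in TATT against TAAA, a difference of 1.79 (adjusted p = 0.0470).

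The T to A ratio of 3 genes differed between the pairs. FSD1, the chloroplast iron superoxide dismutase, had T shares of 91.3%, 87.5% and 89.0% in TTTA and 16.6%, 24.7% and 18.4% in AATA, and of 89.6%, 93.9% and 93.2% in TATT and 13.1%, 18.6% and 15.1% in TAAA. The log2 ratio differences were 3.92 and 5.45, a difference of -1.53 (adjusted p = 0.0469). Its totals were 4.202 to 7.88 RPKM in TTTA and 3.09 to 25.6 RPKM in AATA.

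The plastid genes ATCG00480 and ATCG00680 had differences of 8.17 and 4.32. ATCG00480 had T shares of 99.8%, 90.5% and 89.8% in TTTA and 1.56%, 1.05% and 5.20% in AATA, with 82.5% and 91.2% in TATT and 81.0% and 72.4% in TAAA. ATCG00680 had T shares of 41.6% and 60.8% in TTTA and 18.3%, 4.64% and 2.65% in AATA, with 46.6% and 55.3% in TATT and 47.1% and 60.2% in TAAA. AATA was low in both genes. Poly(A) libraries hold few plastid transcripts, and where shares are missing the gene was listed at 0.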

How the results depend on the processing

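Results with all pairs are compared with each alternative, and causes were not tested. Without the replicate block, 134 totals rose and 150 fell in TTTA. T homoeologs gave 13 lower, 3 beyond and 8 short, A homoeologs 41 beyond and 144 short, and the ratio 1 lower. With all 12 F1 libraries, 832 totals rose and 1131 fell, T gave 308 beyond and 1279 short, A 369 and 1354, and the ratio 351 and 3158. Pseudocount 1 gave T 233 beyond and 2580 short with a median of 1.26, A 1184 short with a median of -1.31, and the ratio 1 lower and 7144 short with a median of 2.60. Pseudocount 0.1 gave T 60 short with a median of 1.55, A 235 beyond with a median of -1.60, and the ratio 115 beyond and 83 short with a median of 3.17.

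A minimum of 5 RPKM gave T 7514 higher, 13 lower, 0 beyond and 0 short with a median of 1.56, A 7599 lower, 71 beyond and 182 short, and the ratio 6979 higher and 328 short with a median of 3.01. A minimum of 20 RPKM, chosen after seeing the data, gave totals 138 higher and 108 lower, T 2271 higher, 8 lower, 0 beyond and 0 short with a median of 1.76, A 5 higher, 2424 lower, 37 beyond and 113 short, and the ratio 2047 higher, 1 lower, 66 beyond and 48 short with a median of 3.13. Rescaled libraries gave T 95 beyond and 311 short, no trend gave the ratio 6 lower, and values in all 6 libraries gave T 68 beyond and 205 short and the ratio 1 lower. The median over genes gave a T share of 75.2% in TTTA.

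Leaving out each replicate number gave 0 to 1320 totals higher and 0 to 2118 lower. T gave 16 to 45 lower, 1 to 251 beyond and 0 to 912 short. A gave 15 to 56 higher, 0 to 899 beyond and 0 to 1571 short, and the ratio 0 to 3 lower, 7 to 192 beyond and 11 to 1460 short. The difference between the crosses passed for no total and no ratio without the block or with rescaling. Leaving out each replicate number gave 0 to 2233 for totals and 0 for ratios.

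Without each replicate number in turn, log2 differences of total expression changed sign for 5 genes, none of them called with all pairs. They ran from -0.0119 to 0.76 for ELF4, from -0.40 to 1.402 for ERF4, from -0.0041 to 0.79 for PHYB, from -0.20 to 0.17 for HT1 and from -0.92 to 0.67 for WRKY53, which was 0.05 without replicate 3 and passed without replicate 2. Without replicate 1 the called ratios of PDF1.3 and MT1C were -0.68 and -0.0223, against 0.0922 and 0.34 with all pairs, and stayed short of the copies. Among single-gene values, 46 lost their call without the block, 71 without replicate 1, 72 without replicate 3 and 8 without replicate 2. The 171 values compared also hold list counts and genes not called with all pairs, so 171 is not the number of calls that could be lost. Read depth is unknown, so the counting error of low values could not be given.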

Other observations

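Plastid-encoded transcripts were not part of any list. Of 11 plastid genes tested for total expression none rose and 1 fell in TTTA against AATA. Their median T share was 49.99% (2 genes), 72.2% and 70.4% in TTTA libraries 1 to 3 and 6.85%, 1.05% and 2.85% in AATA libraries 1 to 3. The 2 genes of TTTA library 1 were at 0.171% and 99.8%, so neither was near that median. Single genes ran from 0.0436% to 98.6% in TTTA library 2 and from 0.0443% to 91.7% in TTTA library 3. In the crosses with AlloF8 named first the median T share was 0.171% (2 genes), 76.9% and 72.7% in TATT libraries 1 to 3. In TAAA libraries 1 to 3 the median was 0.150% (2 genes), 46.8% and 62.4%. Of the summed plastid RPKM the T share was 3.67%, 8.99% and 9.29% in TTTA libraries 1 to 3 and 0.757%, 0.136% and 8.72% in AATA libraries 1 to 3. Summed RPKM of these genes varied between libraries, from 868 to 7227 RPKM in TTTA and from 1431 to 7785 RPKM in AATA.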
